A study of Mus musculus with 15 samples.

Results

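The data described here are the H3K27Me3 libraries at 3 and 24 h post-induction (hpi), with the 12 hpi library as the step between them. These are 3 of the 15 chromatin immunoprecipitation sequencing (ChIP-seq) libraries of this series of chromatin marks. They were chosen by mark and time from their labels, and the change from 3 to 24 hpi was read in every 5 kb window of the genome and in the 5 kb around every protein-coding gene start. The study followed the conversion of C10 cells, 1 line derived from HAFTL mouse pre-B cells with an estrogen-inducible C/EBPα (C/EBPαER), into macrophage-like cells. C10 cells were induced with 100 nM β-estradiol (β-Est) and grown with 10 nM IL-3 and CSF-1, and uninduced control cells received 0.1% ethanol, its solvent. The inducible C/EBPα comes from a transgene, and the sources used here do not say which libraries came from the same culture. The series mapped 3 marks at 5 times with 1 library for each mark and time.

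H3K27Me3 is trimethylation of lysine 27 of histone H3, laid down by the Polycomb complex PRC2. In most cell types it covers genes of other lineages, such as the Hox clusters, in broad domains, and it is low at the starts of active genes. The same lysine can carry an acetyl group instead (H3K27Ac), which marks active promoters and enhancers, and H3K4Me1 marks enhancers more widely. C/EBPα is a transcription factor of the myeloid lineage that drives the switch from B cell to macrophage gene expression.

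With 1 library per mark and time there were no replicates, so no difference could be set against replicate error and no test was run between times. Ratios have exact 95% intervals that cover counting error only. The deposited files held 18.22, 18.97 and 21.06 M tags of 36 bp at 3, 12 and 24 hpi, and 31.56 and 15.36 M at 0 and 48 hpi. All 5 H3K27Me3 libraries were reduced to 1 tag per position and to an equal depth of 15.34 M tags, a mean of 30.5 tags in each of the 502104 windows that held a tag. The 3 hpi file differed in layout from the 12 and 24 hpi files: it held 20706 tags on unplaced sequences and 129 mitochondrial tags, where the later files held 0 of both. This difference and time cannot be told apart between 3 and 24 hpi. The 0 and 48 hpi files shared a single layout and took no part in calling any window or gene start changed. Their tags are given beside many of the results. The 48 hpi library, the smallest, set the equal depth.

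The cell state was read from H3K27Ac in the 5 kb around marker starts. All 8 macrophage markers had more H3K27Ac tags at 24 than at 3 hpi, from 929 to 1677 tags at Tlr4 and from 82 to 977 at Mmp12. Of the 8 pre-B markers, 7 had fewer, with Igll1 going from 2297 to 1490, while Cd79b went from 565 to 900. The median log2 change was 2.37 at the macrophage markers and -0.43 at the pre-B markers, beside -0.29 over all starts. With H3K27Ac libraries scaled by windows without enrichment the same medians were 3.21, 0.40 and 0.31, and all 8 pre-B markers were higher at 24 hpi, so the direction at the pre-B markers rested on the scaling. The pre-B markers kept at least 756 tags at 24 hpi. For H3K27Me3 itself, 27 of 40 Hox starts were enriched at 3 hpi and 27 at 24 hpi, against 2 and 3 of 80 starts of cytoplasmic ribosomal protein genes.

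Promoters of high-ranked gene starts in each direction are printed to show how different the starts were in base content. Each is 300 bases of mm9, from 250 before to 50 after the most upstream annotated start, read 5′ to 3′ on the gene's strand, with CpG dinucleotides in capitals. Klk12 (chr7:51024017-51024316, plus strand), a kallikrein protease gene, had more H3K27Me3 at 24 hpi. Ehd1 (chr19:6273721-6274020, plus strand), a gene of endocytic recycling, and Kdm4b (chr17:56465235-56465534, plus strand), a histone demethylase gene, had less.
Klk12: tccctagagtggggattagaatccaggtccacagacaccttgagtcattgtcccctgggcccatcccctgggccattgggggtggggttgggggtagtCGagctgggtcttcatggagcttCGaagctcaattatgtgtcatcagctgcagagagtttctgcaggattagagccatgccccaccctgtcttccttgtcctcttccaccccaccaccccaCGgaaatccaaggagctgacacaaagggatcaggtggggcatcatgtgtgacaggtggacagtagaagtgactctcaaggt
Ehd1: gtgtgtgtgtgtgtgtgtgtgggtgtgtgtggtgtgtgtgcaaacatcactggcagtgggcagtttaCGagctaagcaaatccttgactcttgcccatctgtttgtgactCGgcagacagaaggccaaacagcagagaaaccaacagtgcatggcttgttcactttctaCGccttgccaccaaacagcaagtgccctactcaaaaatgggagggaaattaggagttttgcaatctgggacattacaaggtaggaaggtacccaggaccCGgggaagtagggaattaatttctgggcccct
Kdm4b: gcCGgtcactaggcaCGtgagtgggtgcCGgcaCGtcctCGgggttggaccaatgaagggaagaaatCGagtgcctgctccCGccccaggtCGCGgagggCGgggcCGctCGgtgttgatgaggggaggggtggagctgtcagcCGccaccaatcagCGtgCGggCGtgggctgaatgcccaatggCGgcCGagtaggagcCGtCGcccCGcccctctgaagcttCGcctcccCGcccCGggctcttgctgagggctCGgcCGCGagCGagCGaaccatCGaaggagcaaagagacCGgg
These held 3, 4 and 31 CpGs, and the median over all 22350 starts was 11. Starts at least 2-fold higher at 24 hpi had a median of 7 CpGs and those at least 2-fold lower had 16. The letters TTNNGCAA, the core of a C/EBP site, were searched on both strands and occurred in 10.3% of all promoters, in 14.0% of the higher and in 9.18% of the lower ones, Ehd1 being the match among the 3 printed. GAGGAA, the core of a PU.1 site, occurred in 28.1%, 32.6% and 28.0%, and in none of the 3. Partial overlaps of the 2 motifs were not removed, and a match describes letters, not binding.

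The first comparison asked how the mark as a whole changed between 3 and 24 hpi. A larger share of tags lay in strongly marked windows at 24 hpi. Windows with at least 50 tags (a Poisson upper tail under 0.001 over the mean), called enriched, held 40.2% of the tags at 3 hpi, 44.7% at 12 hpi and 46.0% at 24 hpi, beside 40.9% at 0 hpi and 47.2% at 48 hpi. Counting error on each share was under its last printed digit. The 3 hpi library therefore lay beside 0 hpi, and the 24 hpi library between 12 and 48 hpi.

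Windows enriched at none of 3, 12 and 24 hpi (388623) had a mean of 20.8 tags at 3 hpi, 19.2 at 12 hpi and 19.2 at 24 hpi. Windows enriched at all of them (68239) had 74.4, 82.9 and 81.0. The difference between the classes was thus seen by 12 hpi. At an equal total, more tags in marked windows leave fewer in unmarked ones, so a gain of the former and a loss of the latter cannot be told apart. None of the 15 libraries was an input control, and how well each pulled down marked chromatin was not tested. Over windows enriched at 3 or 24 hpi the median log2 change was 0.11, against -0.05 over all windows with a tag. The genome-wide order of windows changed little, with a Spearman correlation across windows of 0.912 between 3 and 24 hpi, 0.911 between 3 and 12 hpi and 0.920 between 12 and 24 hpi. Windows share libraries and neighbours and are not replicates.

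Windows were also ranked by their tags at 0 and 48 hpi, which the comparison did not use. In the lowest decile the mean went from 5.96 to 5.09 tags between 3 and 24 hpi, a log2 ratio of -0.23. In the fifth decile it was -0.14, in the eighth 0.01, and in the highest decile 0.16, where the mean went from 78.5 to 87.5 tags. From the second decile, at -0.26, to the highest the change therefore rose with the level of the mark, and the lowest decile lay outside this order. The step from 12 to 24 hpi did not follow the level, with -0.055 in the lowest decile, 0.048 in the eighth and -0.038 in the highest. Over deciles of GC content the log2 ratio from 3 to 24 hpi ranged from -0.04 to 0.02. The steps within it ran in opposite directions, from -0.05 in the lowest GC decile to 0.05 in the highest between 3 and 12 hpi, and from 0.01 to -0.05 between 12 and 24 hpi. From 0 to 48 hpi it went from -0.09 to 0.07.

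**Figure D1:**
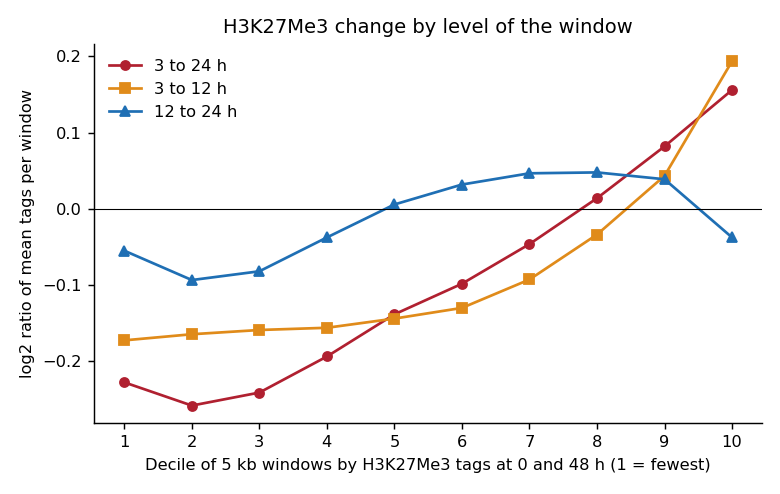
Change of H3K27Me3 by decile of window level. The x axis ranks 5 kb windows by tags at 0 and 48 h, and the y axis gives the log2 ratio of mean tags per window for 3 to 24 h (circles), 3 to 12 h (squares) and 12 to 24 h (triangles). The 3 to 24 h line goes from -0.23 in the lowest decile to 0.16 in the highest.

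Enriched windows with at most 1 window between them were joined into domains. Domains numbered 19458, 18628 and 19224 at 3, 12 and 24 hpi. They covered 481, 485 and 514 Mb. Domains of at least 100 kb numbered 840, 858 and 956 in the same order, and 839 and 1016 at 0 and 48 hpi. Of the 3 hpi domains, 81.1% overlapped a 24 hpi domain by at least 1 bp (Wilson interval 80.5 to 81.6). Of the 24 hpi domains 77.9% overlapped a 3 hpi domain (77.3 to 78.5). Both intervals take each domain as an independent trial and do not cover variation between libraries. Domains without a partner were short, with a median of 5 kb at either time. The longest without a partner was 40 kb at 3 hpi and 125 kb at 24 hpi.

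Domains of 25 kb or more at 3 hpi were also followed across their edges. In the first 5 kb outside, the mean was 33.7 tags at 3 hpi, 36.6 at 12 hpi and 37.2 at 24 hpi. At 20 to 25 kb outside it was 24.7, 24.6 and 24.7, with no change. From 5 to 10 kb inside the edge it was 67.2, 73.8 and 72.5. Both the interior and the nearest flank thus had more tags at 24 hpi, and the edges were set at 3 hpi, which places low 3 hpi counts outside. The same flank had 36.4 tags at 0 hpi and 38.2 at 48 hpi, a smaller difference.

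The second comparison was made window by window. A window was called changed when log2((24 hpi + 5)/(3 hpi + 5)) reached 1 in size and its larger count was at least 20 tags. Of 329704 windows with 20 tags, 1601 were at least 2-fold higher at 24 hpi (0.486%) and 4086 at least 2-fold lower (1.24%). At 1.5-fold, 17042 were higher (5.17%) and 26841 lower (8.14%). The split between directions rested on the scaling, the window size and the minimum of tags. With libraries scaled by windows that were not enriched, which raises 24 against 3 hpi by a log2 factor of 0.11 before the 5 tags are added, 2777 windows were higher and 2336 lower. In windows of 2 kb 5586 were higher and 3158 lower, and with at least 50 tags 782 were higher and 98 lower.

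The higher and lower windows were of different kinds. Windows higher at 24 hpi had medians of 19, 33 and 48 tags at 3, 12 and 24 hpi, and 28 and 43 at 0 and 48 hpi, and 48.8% of them were enriched at 24 hpi. Windows lower at 24 hpi had medians of 25, 16 and 9 tags, and 18 and 15 at 0 and 48 hpi, and 2.40% were enriched at 3 hpi. Of the higher windows 7.43% were enriched at 3 hpi, beside 26.6% of all windows with 20 tags. At 3 hpi both kinds thus lay mostly in chromatin with little of the mark. These shares come from the counts that chose the windows. At 0 and 48 hpi 15.4% and 44.3% of the higher windows were enriched, and 0.881% and 0.245% of the lower ones. Of all windows with 20 tags 26.8% and 28.2% were. Of the higher windows 74.4% had more tags at 48 than at 0 hpi, and of the lower windows 67.1% had fewer, beside 43.6% and 52.5% of all windows with 20 tags. Among the 782 higher windows with at least 50 tags the share was 94.8%, with medians of 41, 33, 58, 80 and 79 tags from 0 to 48 hpi. Only 98 lower windows had 50 tags, with medians of 44, 55, 41.5, 23 and 32, and 80.6% of these were lower at 48 than at 0 hpi. Of all windows with 50 tags at 3 or 24 hpi, 60.7% were higher and 36.8% lower at 48 than at 0 hpi.

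The change reached at 12 hpi, as a share of the log2 change to 24 hpi, had a median of 61.1% in higher windows and 48.5% in lower windows. The 3 hpi count sits in both parts of this share, so its counting error enters both. The windows were chosen for far apart counts at 3 and 24 hpi, so a 12 hpi count between them is likely in any case. In lower windows the 12 hpi median of 16 tags lay between the 18 and 15 at 0 and 48 hpi. The share therefore cannot show the timing of a change.

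Of the lower windows 16.7% were enriched in H3K27Ac at 3 hpi, beside 5.21% of all windows with 20 tags. Of windows enriched in H3K27Me3 at neither 3 nor 24 hpi 8.95% were. Windows enriched in H3K27Ac at 0 and 48 hpi (31612) had median H3K27Me3 counts of 17, 16, 16, 13 and 16 tags from 0 to 48 hpi. The 24 hpi library therefore stood below the other 4 in active chromatin. Of the tested windows in this class, 4.58% were at least 2-fold lower at 24 hpi and 0.354% were higher, beside 1.04% and 0.456% where H3K27Ac was enriched at neither time. How far this trait of the 24 hpi library entered the lower calls was not tested.

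Called windows that lay side by side (at most 1 window between them) were joined into runs, and windows between them counted toward the length. There were 89 runs spanning 3 or more windows with more tags at 24 hpi, the longest 195 kb, and 80 with fewer, the longest 30 kb. They held 334 and 179 called windows, and 54 of the higher and 17 of the lower runs held at least 3. At 12 hpi all 89 higher runs had more tags than at 3 hpi, and all 80 lower runs had fewer. The 3 hpi counts took part in choosing the runs. All 89 higher runs also had more tags at 48 than at 0 hpi, as 43.6% of single windows with 20 tags did. Their median log2 change was 1.12 from 3 to 24 hpi and 1.11 from 0 to 48 hpi. Of the 80 lower runs, 68 had fewer tags at 48 than at 0 hpi, with a median log2 change of -1.06 from 3 to 24 hpi and -0.29 from 0 to 48 hpi. From 24 to 48 hpi the lower runs moved back by a median of 0.49.

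The longest higher run was also first by the lower limit of its ratio. It spanned chr4:80160001-80355000 (mm9), held no protein-coding gene, and lay 125027 bp upstream of the start of Tyrp1, a melanin synthesis gene. It had 1056 tags at 3 hpi, 2401 at 12 hpi and 3227 at 24 hpi, beside 1065 at 0 hpi and 3388 at 48 hpi. The 3 libraries from 12 hpi on all lay far above the 2 earlier ones. The ratio of 24 to 3 hpi was 3.06 (2.85 to 3.28). A second run, chr4:80370001-80415000, lay 65027 bp upstream of the same start and had 319, 873 and 929 tags at 3, 12 and 24 hpi (ratio 2.91, 2.56 to 3.32). The surrounding megabase, 80000001 to 81000000 of chromosome 4, had the highest log2 change of the 2539 megabases compared, 0.74, where the SD over megabases was 0.13.

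**Figure D2:**
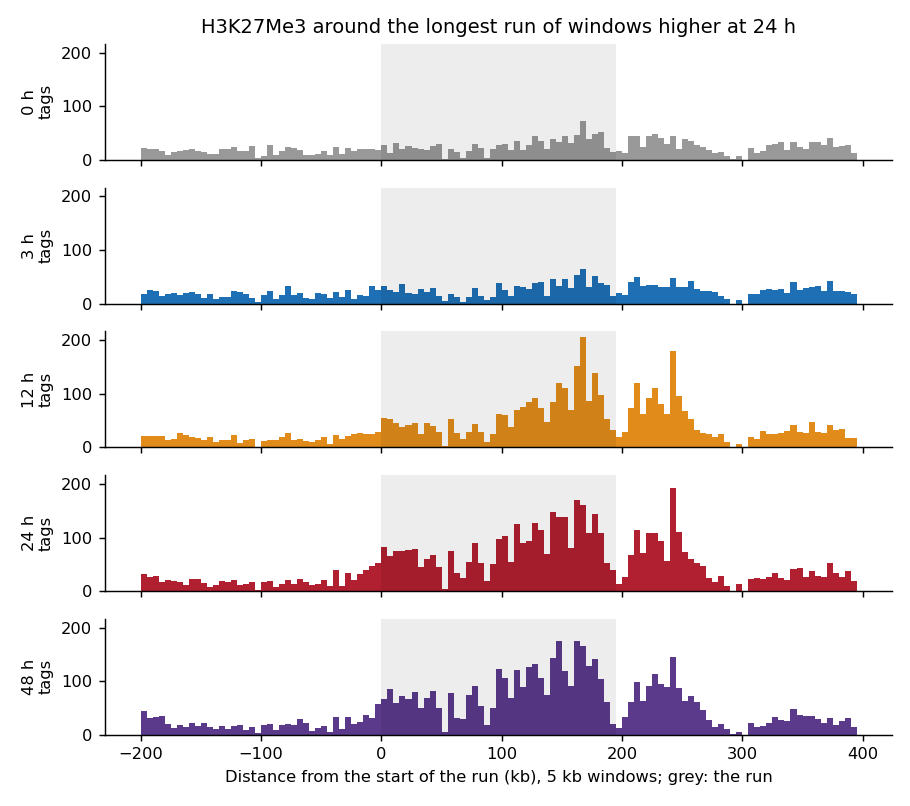
H3K27Me3 tags in 5 kb windows around the longest run of windows higher at 24 h, by distance from its start, with 1 panel per time. The grey band marks the run of 195 kb, which held 1065 and 1056 tags at 0 and 3 h and 2401, 3227 and 3388 at 12, 24 and 48 h.

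Further named runs lay near Pid1 and Dner and on chromosome 2. Upstream of Pid1, an adaptor gene of insulin signalling, chr1:84320001-84355000 had 189, 391 and 597 tags at 3, 12 and 24 hpi (ratio 3.16, 2.68 to 3.74), and 175 and 571 at 0 and 48 hpi. The neighbouring run chr1:84365001-84440000, which takes in exons and introns of Dner, a gene for a Notch ligand, had 391, 595 and 1099 (ratio 2.81, 2.50 to 3.16). The fifth by rank, chr2:160020001-160035000 between genes, had 79, 144 and 248 tags (ratio 3.14, 2.43 to 4.10). All of these were higher at 48 than at 0 hpi.

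H3K4Me1, and at some runs H3K27Ac, had more tags in the same places, mostly at low levels. Over the 89 higher runs the median of tags per window went from 7.67 to 28.6 for H3K4Me1, with 39 needed for enrichment. For H3K27Ac it went from 13.6 to 16.0, with 50 needed. Of the 334 called windows in these runs, 24.6% were enriched in H3K4Me1 at 24 hpi and 9.28% in H3K27Ac. Of all windows with a tag 13.3% and 9.12% were. In the Pid1 run H3K4Me1 went from 40 to 525 tags and H3K27Ac from 62 to 789 between 3 and 24 hpi. In the Dner run they went from 85 to 998 and from 162 to 1128. In the Tyrp1 run H3K4Me1 went from 233 to 894 tags while H3K27Ac went from 611 to 404. Of the 89 higher runs, 84 had more H3K4Me1 at 24 hpi and 55 at least 2-fold more, with a median log2 change of 1.32. Over all 165063 stretches of 3 neighbouring windows, 28.2% had more H3K4Me1 and 4.46% at least 2-fold more, and the median was -0.28. H3K27Ac was at least 2-fold higher in 27 of the runs and 2-fold lower in 15, with a median of -0.16, where 4.0% and 41.5% of the stretches were and their median was -0.85. Scaled by windows that were not enriched, the H3K27Ac median was 0.67 in the runs and -0.23 in the stretches, and that of H3K4Me1 was 1.61 and -0.05, so the sign of the H3K27Ac change rested on the scaling. ChIP-seq of a cell population does not show whether the marks sat on the same chromosomes.

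The lowest ratios among lower windows came from single windows with few tags. An intronic window of Dgkd (chr1:89790001-89795000), a diacylglycerol kinase gene, had 21, 23 and 0 tags at 3, 12 and 24 hpi and 16 at both 0 and 48 hpi. The exact upper limit of its ratio of 24 to 3 hpi was 0.192. Only the 24 hpi library was low there. An intronic window of Ajap1, a junction protein gene, on chr4:152785001-152790000 had 20, 13 and 0 tags and 9 and 3 at 0 and 48 hpi, with an upper limit of the ratio of 0.203. It lies in the megabase with the lowest log2 change of all, 152000001 to 153000000 of chromosome 4, which had -0.65 from 3 to 24 hpi and -0.57 from 0 to 48 hpi. The windows near Frmd8 (chr19:5830001-5835000), Dmrta1 (chr4:89170001-89175000) and Adrbk1 (chr19:4310001-4315000) went from 33 to 3, from 27 to 2 and from 21 to 1 tags.

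The decile of megabases with the lowest change had a median of 2 gene starts and 3545 tags at 3 hpi, beside 5 starts and 6008 tags over all megabases. The highest decile had 6 starts and 7366 tags. H3K27Ac had a median log2 change of -1.29 in the same lowest decile and of 0.16 in the highest, against -0.35 over all megabases. H3K4Me1 had -0.44 and 0.28, against -0.17. Whether the lower tags of all 3 marks there share a technical source was not tested.

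The third comparison was made at gene starts. Of 14068 protein-coding starts with at least 20 tags in their 5 kb, 43 were at least 2-fold higher at 24 hpi (0.306%) and 207 at least 2-fold lower (1.47%). At 1.5-fold, 646 were higher (4.59%) and 1137 lower (8.08%). Scaling by windows that were not enriched gave 85 higher and 140 lower starts at 2-fold. The direction of the split turned with at least 50 tags, where 22 were higher and 9 lower, and in 2 kb around the start, where 76 were higher and 67 lower. Starts less than 5 kb apart share tags, which holds for 4278 of the 22350 starts.

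At 3 hpi H3K27Ac was enriched at 12 of the 43 higher starts, 27.9%, beside 37.3% of all starts with 20 tags. Klk12 had 15, 35 and 50 tags at 3, 12 and 24 hpi (ratio 3.33, 1.84 to 6.39), and 21 and 108 at 0 and 48 hpi. The run chr7:51005001-51025000, which spans the start of Klk12 and lies mostly upstream of it, was among the higher runs. It had 188, 430 and 537 tags and shares tags with the 5 kb around the start. Gcnt3, a glycosyltransferase gene, had 53, 89 and 122 tags (ratio 2.30, 1.65 to 3.24), but 108 and 106 at 0 and 48 hpi, so that only the 3 hpi library was low. Gm4953 had 57, 102 and 129 (ratio 2.26, 1.64 to 3.15), and 81 and 148 at 0 and 48 hpi.

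Rhag, which encodes a glycoprotein of red cells, had 57, 67 and 127 tags (ratio 2.23, 1.62 to 3.10), and 63 and 89 at 0 and 48 hpi. Siglece, a sialic acid receptor of myeloid cells, had 58, 98 and 124 (ratio 2.14, 1.55 to 2.97), and 45 and 99 at 0 and 48 hpi. Its H3K27Ac went from 12 to 114 tags over the same 5 kb. Nt5e, which encodes the ectonucleotidase CD73, had 36, 86 and 83 (ratio 2.31, 1.54 to 3.51), and 42 and 115 at 0 and 48 hpi. At these starts the step to 12 hpi ranged from small (Rhag) to complete (Nt5e).

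The remaining named starts had ratios with lower limits between 1.52 and 1.57. Iglon5, a cell adhesion gene, went from 40 to 92 tags, Tmem132e from 8 to 28, Ms4a4c, of the MS4A family of membrane proteins, from 29 to 70, and Sim2, a developmental transcription factor gene, from 22 to 56. Nov, a secreted matrix protein gene, went from 29 to 69 and Abca6, a transporter gene, from 15 to 42. Sim2 had 14 tags at 12 hpi, outside the range of its 3 and 24 hpi counts. All 6 were higher at 48 than at 0 hpi, with 56 and 92 tags at Iglon5, 27 and 35 at Tmem132e, 35 and 63 at Ms4a4c, 35 and 44 at Sim2, 24 and 66 at Nov and 23 and 39 at Abca6.

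Of the 22 higher starts with at least 50 tags, 17 had more tags at 48 than at 0 hpi, beside 3604 of all 5522 starts with 50 tags. Their medians were 42.5, 33, 51, 72 and 69 tags from 0 to 48 hpi. Of the 21 with fewer tags, 10 were higher and 9 lower at 48 than at 0 hpi, so the latter had no common direction outside the pair of libraries that chose them.

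The starts that were lower were mostly active. Of the 207, 70.5% were enriched in H3K27Ac at 3 hpi, beside 37.3% of all starts with 20 tags. The 2 sets were not matched for H3K27Me3 level. Of the 207, 198 had under 50 tags, while the larger set took in 5522 starts with 50 tags, of which 25.8% were enriched in H3K27Ac. The first by rank was the shared start of Arhgap26, a GTPase regulator, and 9630014M24Rik, beside Spry4, an inhibitor of receptor kinase signalling. The window of Arhgap26 had 23, 10 and 2 tags at 3, 12 and 24 hpi (ratio 0.087, 0.0099 to 0.352), and 20 and 14 at 0 and 48 hpi. Ehd1 had 20, 12 and 2 (ratio 0.10, 0.011 to 0.412), and 15 and 14 at 0 and 48 hpi. Kdm4b had 23, 9 and 3 (ratio 0.13, 0.025 to 0.432), and 14 and 12. In each of these the 24 hpi library stood lowest and 48 hpi lay close to 0 hpi.

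Further named starts with few tags were those of Psmc3, a proteasome subunit, with 20 and 3 tags at 3 and 24 hpi, and of 4933439F18Rik with 23 and 4. Ssb, the La RNA-binding protein, had 28 and 6, Zfp60 22 and 4, 4930569F06Rik 22 and 4, and Agbl5, a tubulin-modifying enzyme, 24 and 5. From 0 to 48 hpi these went from 17 to 15 at Psmc3, 25 to 16 at 4933439F18Rik, 30 to 13 at Ssb, 17 to 11 at Zfp60 and 20 to 13 at Agbl5, with 8 at both times at 4930569F06Rik. Fosl2, a subunit of AP-1, had 37, 25 and 10 tags at 3, 12 and 24 hpi and 40 and 14 at 0 and 48 hpi, and its H3K27Ac went from 667 to 1439 tags. Over the 198 lower starts under 50 tags, the medians were 19, 24, 17, 8 and 15 from 0 to 48 hpi.

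The 9 lower starts with at least 50 tags were Mms19, Cd33, Syde2, Tmem150b, Stom, Tubb6, Zkscan17, Csgalnact2 and Psen2. Their medians were 69, 62, 51, 22 and 30 tags from 0 to 48 hpi. All 9 had fewer tags at 48 than at 0 hpi, beside 1776 of all 5522 starts with 50 tags. Their H3K27Ac had a median log2 change of 1.70, against -0.46 over starts with 50 tags, and 6 of 9 were at least 2-fold higher in H3K27Ac, where 7.13% of 12488 starts were. None of the 9 was at least 2-fold lower in H3K27Ac, as 9.71% of starts were. For H3K4Me1, 2 of 9 were at least 2-fold higher, where 4.99% of 13259 starts were and 5.14% were lower. Other sets had lower medians. The H3K27Ac median was -0.22 at the 141 starts with 50 tags that were 1.5-fold lower, and -0.09 at the 198 lower starts under 50 tags. Of the 141, which take in the 9, 30 were at least 2-fold higher and 11 lower in H3K27Ac. Of all 5522 starts with 50 tags 322 were higher and 473 lower. Of the 198, 10 were higher and 5 lower. A 2-fold call in a mark needed at least 20 tags of it at 3 or 24 hpi. Of the 22 higher starts with 50 tags, 4 were at least 2-fold higher and 0 lower in H3K27Ac, and 9 were higher and 1 lower in H3K4Me1. The 22 had median counts of 11 and 10 H3K27Ac tags and 7.5 and 16.5 H3K4Me1 tags at 3 and 24 hpi. Many thus could not be called in either direction. H3K27Ac fell at least 2-fold without a call at Gm9000 (10 to 1 tags), Gm4953 (12 to 3) and Sim2 (14 to 4). The 0 thus does not exclude losses of H3K27Ac. Gp49a and Lilrb4, with the same counts, were both among those higher in each mark.

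Cd33, an inhibitory receptor of myeloid cells, had 58, 35 and 19 H3K27Me3 tags at 3, 12 and 24 hpi (ratio 0.33, 0.18 to 0.56), and 37 and 27 at 0 and 48 hpi. Its H3K27Ac had 294, 1533 and 2174 tags. Psen2, a subunit of γ-secretase, had 50, 48 and 22 H3K27Me3 tags (ratio 0.44, 0.25 to 0.74) and 170, 827 and 1409 H3K27Ac tags. At both genes acetylation was already above its 3 hpi level at 12 hpi, and at Psen2 H3K27Me3 had 48 tags at 12 hpi against 50 at 3 hpi. Tubb6, a β-tubulin, had 76, 63 and 31 tags (ratio 0.41, 0.26 to 0.63) and 92 and 36 at 0 and 48 hpi. Stom, the membrane protein stomatin, had 68, 51 and 27 (ratio 0.40, 0.24 to 0.63). Mms19, a factor of iron-sulphur protein assembly, had 64, 51 and 21 (ratio 0.33, 0.19 to 0.54), with a smaller H3K27Ac change, from 341 to 501 tags. From 0 to 48 hpi Psen2 went from 51 to 19 H3K27Me3 tags, Stom from 73 to 30 and Mms19 from 66 to 32.

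The profile around these 9 starts was read next. They were chosen by a fall in the 5 kb around the start, so the width of the loss was not tested. Between the start and 1 kb downstream, shown as its midpoint at 500 bp, the mean was 10.4 tags per kb at 3 hpi, 6.67 at 12 hpi and 3.67 at 24 hpi. In the kilobase centred 4500 bp upstream the mean was 17.0, 27.3 and 22.4, higher at both later times. At the 43 higher starts the kilobase just downstream had 4.23, 6.79 and 9.21 tags, and over all starts it had 5.19, 5.54 and 5.04. The profile of the called starts was drawn from the counts that chose them, apart from 12 hpi. From 0 to 48 hpi, which took no part in the choice, the kilobase just downstream of the 9 starts went from 10.0 to 4.0 tags. The kilobase centred 3500 bp downstream, outside the 5 kb, went from 8.78 to 6.11, and that 4500 bp upstream from 17.2 to 18.6.

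**Figure D3:**
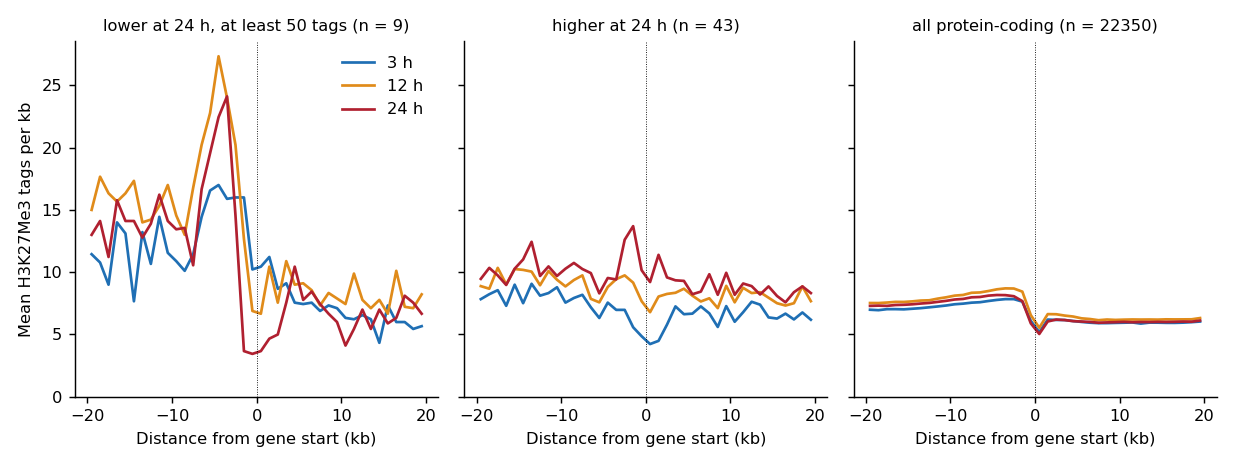
Mean H3K27Me3 tags per kb (y axis) by distance from the gene start in kb (x axis, negative upstream) at 3, 12 and 24 h, for the 9 lower starts with at least 50 tags, the 43 higher starts and all 22350 starts. At the 9 starts the 24 h line drops to 3.67 tags per kb just downstream of the start and stands above the 3 h line 4500 bp upstream.

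**Figure D4:**
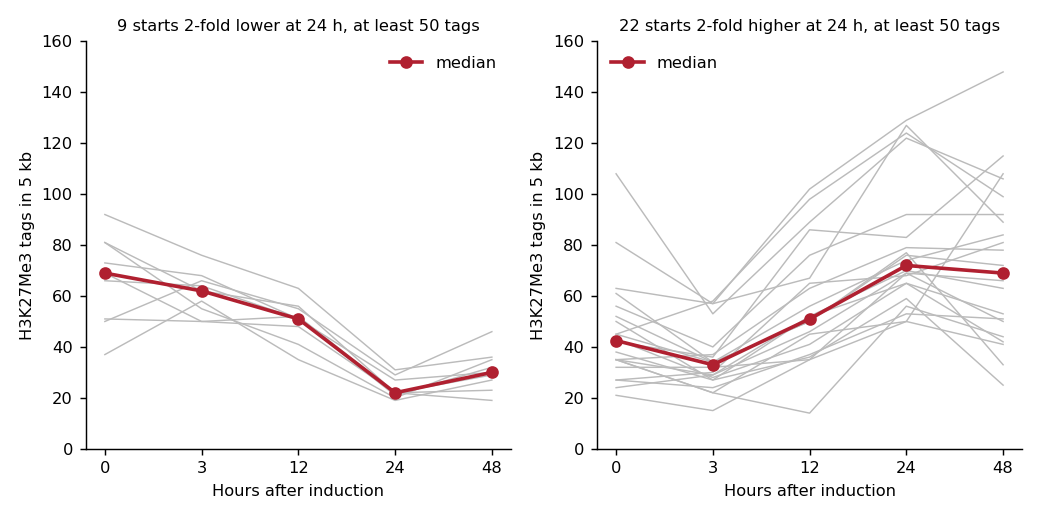
H3K27Me3 tags in 5 kb (y axis) at 0, 3, 12, 24 and 48 h (x axis) for the 9 lower and the 22 higher starts with at least 50 tags. Grey lines are single starts and the red line is the median. The lower median goes from 62 at 3 h to 22 at 24 h and 30 at 48 h, and the higher median from 33 to 72 and 69.

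Gene lists were then read against the background of all starts, where the median log2 change was -0.06. The macrophage list had 60 starts, of which 45 had 20 tags, and its median was -0.08. Of the 45, 7 were at least 1.5-fold higher (15.6%) and 9 at least 1.5-fold lower, beside 4.59% and 8.08% of all starts tested. Macrophage genes were thus split, with shares in both directions above those of all starts.

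The lower macrophage starts included surface receptors and cytokines. Cd14, the lipopolysaccharide co-receptor, had 113, 152 and 67 tags at 3, 12 and 24 hpi, and 119 and 37 at 0 and 48 hpi. Tlr2, a receptor for bacterial lipoproteins, had 74, 49 and 38, and 64 and 20 at 0 and 48 hpi. Il1b, the cytokine interleukin-1β, had 53, 54 and 28, and 49 and 20. Mmp9, a matrix protease, had 63, 69 and 33, and 63 and 32. Tnf, an inflammatory cytokine, was at least 2-fold lower, with 25, 34 and 8, and 19 and 17. At Cd14, Il1b, Mmp9 and Tnf the 12 hpi count was not below that at 3 hpi. The other 4 were Ctsd, Mmp8, Tyrobp and Lyz2, all with at most 25 tags at 3 hpi. The ratio interval left out 1 at 6 of the 9, and took it in at Mmp8, Tyrobp and Lyz2. All 9 were lower at 48 than at 0 hpi, beside 788 of all 1137 starts that were 1.5-fold lower. The difference was small at Tnf and at Ctsd, which had 22 and 18 tags. All 9 had more H3K27Ac at 24 than at 3 hpi, with Cd14 going from 269 to 1440 tags and Tlr2 from 290 to 1325. More H3K27Ac was also seen at 51 of all 60 macrophage starts, beside 3447 of the 14068 starts with 20 tags.

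The higher macrophage starts were Msr1, Il1a, Fpr2, Emr1, Clec4e, Lpl and Cebpe. Msr1, a scavenger receptor, had 63, 78 and 107 tags at 3, 12 and 24 hpi, and 49 and 66 at 0 and 48 hpi. Il1a, the cytokine interleukin-1α, had 108, 218 and 175, and 97 and 153. Fpr2, a formyl peptide receptor, had 61, 72 and 98, and 53 and 100, and Emr1, which encodes F4/80, had 81, 112 and 124, and 68 and 99. All 7 were higher at 48 than at 0 hpi, beside 441 of all 646 starts that were 1.5-fold higher. H3K27Ac was higher at 24 than at 3 hpi in 5 of these 7 as well, with Msr1 going from 6 to 542 tags, Clec4e, a lectin receptor, from 26 to 505 and Fpr2 from 15 to 162. Both counts stand beside 51 of 60 over the whole macrophage list. More H3K27Ac was thus common in the list whatever the direction of H3K27Me3.

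**Figure D5:**
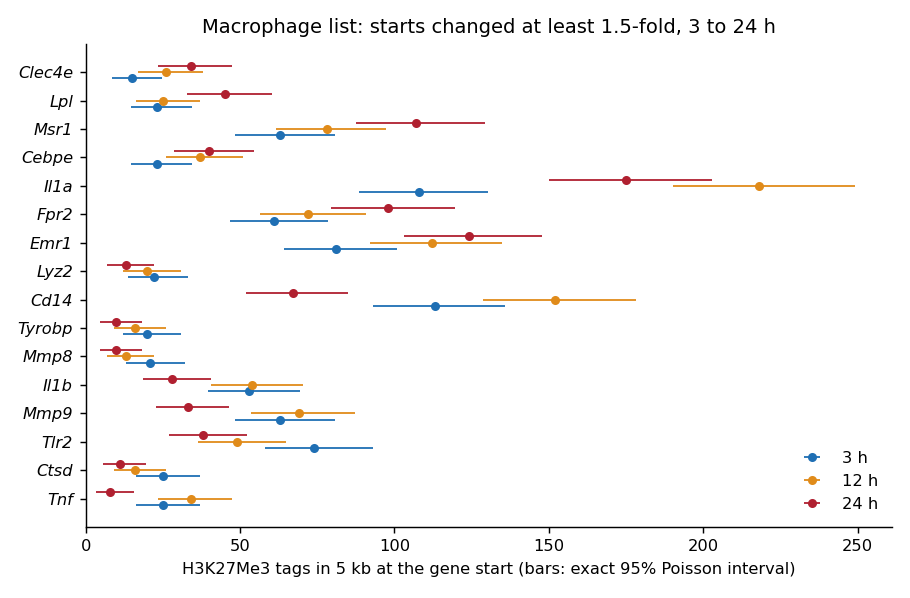
H3K27Me3 tags in the 5 kb around the 16 macrophage starts that changed at least 1.5-fold, at 3, 12 and 24 h, with exact 95% Poisson intervals as bars. Cd14 goes from 113 to 67 tags and Il1a from 108 to 175 between 3 and 24 h.

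The genes the study used as examples of macrophage enhancers were picked from these same cells and share members with the macrophage list, so they are not independent evidence. Of 18 starts 11 had 20 tags, 0 were at least 1.5-fold higher and 6 at least 1.5-fold lower (Ctsd, Fos, Ehd1, Il1b, Tyrobp and Cd14), beside 4.59% and 8.08% of all starts. The median log2 change was -0.72 over the 18 starts and -0.68 over the 11. Fos, a subunit of AP-1, had 93, 104 and 56 tags at 3, 12 and 24 hpi, and 82 and 51 at 0 and 48 hpi.

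The B lineage list showed little of the mark. Only 7 of 30 starts had 20 tags, and 0 of these changed 1.5-fold, beside 4.59% higher and 8.08% lower of all starts. The median log2 change was -0.15 over all 30 starts but 0.23 over the 7 with 20 tags, of which 5 had more tags at 24 than at 3 hpi. Median counts were 12, 13.5 and 10 tags at 3, 12 and 24 hpi, and 12 and 16 at 0 and 48 hpi. From 0 to 48 hpi the median log2 change over the 30 was 0.15. Enriched starts numbered 3 at 3 hpi and 5 at 24 hpi. Rag1, a recombinase gene of antigen receptor assembly, had 39, 40 and 58 tags at 3, 12 and 24 hpi, and 38 and 53 at 0 and 48 hpi. Fcer2a, which encodes CD23, had 80, 106 and 98, and 73 and 105, while Dntt, a polymerase gene of the same assembly, had 26, 16 and 18, and 20 and 19. H3K27Ac at B lineage starts had a median log2 change of -0.65, beside -0.29 over all starts, and scaled by windows that were not enriched it was 0.18, beside 0.31.

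Hox starts are classical Polycomb targets. Of 35 Hox starts with 20 tags, 2 were at least 1.5-fold higher (5.71%, beside 4.59% of all starts) and 1 lower (2.86%, beside 8.08%). The median log2 change was -0.084 over the 35 and -0.11 over all 40 Hox starts. Hoxa9 had 49, 73 and 81 tags at 3, 12 and 24 hpi but 88 at both 0 and 48 hpi, and Hoxd1 went from 55 to 35 with 43 at both. The changes of Hoxa9 and Hoxd1 were thus absent between 0 and 48 hpi.

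Of 109 developmental transcription factor starts with 20 tags, 2 were 1.5-fold higher (1.83%, beside 4.59% of all starts) and 8 lower (7.34%, beside 8.08%). All 8 were lower at 48 than at 0 hpi, beside 788 of all 1137 starts that were 1.5-fold lower. Dlx5, a homeobox gene of limb and bone, had 55, 37 and 28 tags at 3, 12 and 24 hpi, and 43 and 19 at 0 and 48 hpi. Tbx5, a heart and limb regulator, went from 57 to 32 tags, Sox14 from 25 to 13 and Tlx2 from 15 to 32. From 0 to 48 hpi Tbx5 went from 67 to 45, Sox14 from 16 to 15 and Tlx2 from 23 to 46. None of the 8 lower starts had more H3K27Ac at 24 than at 3 hpi, beside 9 of all 134 starts of the list. Of all 14068 starts with 20 tags 3447 had more, and their median log2 change of H3K27Ac was -0.42. Scaled by windows that were not enriched, 2 of the 8 had more, beside 38 of the 134 and 8147 of the 14068.

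In the list of Polycomb and demethylase genes 1 of 19 starts with 20 tags was 1.5-fold higher (5.26%, beside 4.59% of all starts) and 0 were lower, beside 8.08%. The member was Pcgf5, a subunit of Polycomb repressive complex 1, with 39, 82 and 79 tags, and 49 and 76 at 0 and 48 hpi. Of 6 cell cycle inhibitors with 20 tags, 1 was at least 1.5-fold higher and 1 lower, beside the same 4.59% and 8.08%. Btg1 was 2-fold higher, as 0.306% of all starts were, with 11, 43 and 32 tags at 3, 12 and 24 hpi, and 19 and 27 at 0 and 48 hpi, while Gadd45g went from 45 to 27.

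Of 89 potassium channel starts with 20 tags, 1 was 1.5-fold higher (1.12%, beside 4.59% of all starts) and 11 lower (12.4%, beside 8.08%), with Kcnv2 going from 27 to 9 tags, Kcnc2 from 26 to 9, Kcna6 from 27 to 13 and Kcnk12 from 23 to 11. Of these 11, 5 were lower and 4 higher at 48 than at 0 hpi. Wnt, Fgf and Bmp ligands had 3 higher and 2 lower of 41, with Wnt10a, a secreted Wnt ligand, at 58, 114 and 112 tags and Wnt16 at 49, 86 and 92. From 0 to 48 hpi Wnt10a went from 101 to 104 and Wnt16 from 62 to 87. Fgf13 went from 33 to 15 and Bmp15 from 23 to 12 between 3 and 24 hpi, but from 19 to 22 and from 8 to 18 between 0 and 48 hpi.

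T lineage starts had 0 of 16 changed 1.5-fold, and erythroid and stem cell regulators 1 of 15, which was Gata1, the erythroid master regulator, with 30, 61 and 53 tags and 44 and 48 at 0 and 48 hpi. Clustered protocadherins had 1 of 20 changed (Pcdhb3, 52 to 32 tags). Olfactory receptors had 42 higher and 81 lower of 879 (4.78% and 9.22%), vomeronasal receptors 8 and 21 of 165 (4.85% and 12.7%) and zinc finger genes 10 and 19 of 208 (4.81% and 9.13%), beside 4.59% and 8.08% of all starts. Their median log2 changes over all starts of each list were -0.06, 0 and -0.11, and over those with 20 tags -0.05, -0.12 and 0. Starts of cytoplasmic ribosomal protein genes, which are highly active, had the second lowest median of the lists, -0.22, with median counts of 16.5, 16, 11 and 16 tags at 3, 12, 24 and 48 hpi. Only 24 hpi was low, as in active windows at large.

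H3K27Ac and H3K4Me1 were last compared at the starts called in H3K27Me3. H3K27Ac changed by a median log2 of -0.29 at the 43 higher starts, -0.07 at the 207 lower starts and -0.42 over all 14068 starts with 20 tags. H3K4Me1 changed by 0.17, -0.21 and -0.25. The 3 sets were not matched for H3K27Ac level, with 27.9%, 70.5% and 37.3% enriched in H3K27Ac at 3 hpi. Over windows the median H3K27Ac change was 0.10 where H3K27Ac was enriched at 3 and 24 hpi, and -0.58 where at neither. How far the H3K27Ac level set the medians of the starts was not tested. These medians also rest on the scaling. Scaling by windows that were not enriched raises 24 against 3 hpi by a log2 factor of 0.84 for H3K27Ac and 0.31 for H3K4Me1, and by less where tags are few, since 5 tags are added to each count. With H3K27Me3 scaled and called in the same way, the H3K27Ac median was 0.37 at the higher and 0.75 at the lower starts. That of H3K4Me1 was 0.39 and 0.034. Over the 14068 starts the scaled medians were 0.18 for H3K27Ac and -0.021 for H3K4Me1. Taken the other way, the 890 starts at least 2-fold higher in H3K27Ac had 75 starts 1.5-fold lower and 57 higher in H3K27Me3, of 638 with 20 tags. The 1213 starts at least 2-fold lower in H3K27Ac had 53 lower and 35 higher of 937. The shares were 11.8% lower and 8.93% higher in the first group and 5.66% and 3.74% in the second, beside 8.08% and 4.59% of all starts tested. The median H3K27Me3 change was -0.05 and -0.04.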

How the data were processed

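ChIP-seq tags of H3K27Me3 at 3, 12 and 24 hpi were analysed, with the H3K27Me3 libraries at 0 and 48 hpi and the H3K27Ac and H3K4Me1 libraries beside them. The titles gave the mark and time of each sample. The authors aligned reads to mm9 with Eland or Bowtie without mismatches and removed non-unique and identical tags. The submitters' processing notes name Bowtie and mm9, and no version is given in the sources used here. The deposited files hold the position of each tag of 36 bp, without strand, and no counts.

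Tags were placed at their middle (18 bp from the start), reduced to 1 per position and thinned at random (seed 1) to the smallest library of the mark: 15.34 M for H3K27Me3, 15.22 M for H3K27Ac and 10.91 M for H3K4Me1. Chromosomes 1 to 19 and X were used. Windows of 5 kb and 5 kb centred on the most upstream start of each protein-coding gene (GENCODE vM1 on NCBIM37) were counted, and 5 tags were added before taking log2. Of 46014840 tags, 6 lay over unknown bases, which checked the build. Enrichment was a Poisson upper tail under 0.001, at least 50 tags for H3K27Me3 and H3K27Ac and 39 for H3K4Me1. Exact intervals for counts and ratios cover 95% and counting error only. Median intervals, also of 95%, use the ranks of windows or starts, and Wilson intervals take each domain or tag as a trial. Both treat members as independent, and neither covers variation between libraries. Tags at different positions may still be copies of the same molecule.

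Named starts were those at least 2-fold changed with at least 20 tags, ranked by the limit of the ratio's interval nearest to no change, the first 12 per direction, and the first 5 joined regions of windows per direction by the same limit. The 9 and 22 starts with 50 tags, the 1.5-fold members of lists and the neighbouring runs were added after their values were seen. Members, lists and tests were chosen with earlier results of these data known. Scripts were tested on simulated counts. Python 3.11.15, numpy 2.4.6, pandas 2.3.3 and scipy 1.17.1 were used. A member of the Hox list and a promoter sequence are not reported here.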

Additional observations from a re-analysis of the deposited data

Results flagged for a closer look

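Tags outside every comparison were seen on chromosome Y, with 1657, 1612 and 1741 tags in the H3K27Me3 libraries at 3, 12 and 24 hpi. The library at 3 hpi also held 20706 tags on unplaced sequences and 129 on the mitochondrial chromosome. Each number lies above the 3 counts that a count of 0 allows. With 1 library in each group, outlying samples could not be looked for.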

How the results depend on the processing

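No paired analysis was possible because no group held more than 1 library, and none could be left out. In 18 alternatives, 85 of 154 values stayed within the limits of the reported ones, 67 moved and 2 reversed. Counts of called windows and starts in both directions stayed within 1.5 times with tags as deposited, another thinning seed and GC class medians subtracted, and those of starts with the start of most transcripts. They moved as follows under the other choices, and the cause was not tested.

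Windows at least 2-fold higher and lower (1601 and 4086) became 3301 and 9145 with 1 tag added, 17042 and 26841 at 1.5-fold, 2455 and 8525 without a minimum of tags, 782 and 98 with 50 tags, 2777 and 2336 scaled by windows not enriched, 909 and 1861 without thinning, 441 and 1925 in windows of 10 kb and 5586 and 3158 in windows of 2 kb. Higher windows alone became 667 scaled by enriched windows. Gene starts higher and lower (43 and 207) became 109 and 426 with 1 tag added, 646 and 1137 at 1.5-fold, 73 and 553 without a minimum, 22 and 9 with 50 tags, 22 and 103 without thinning and 76 and 67 in 2 kb. Higher starts alone became 85 and 11 under the background and enriched scalings and 19 in 10 kb.

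The median log2 change of enriched windows (0.11) was 0.21 scaled by background, 0.089 in 10 kb windows and 0.14 at the stricter tail of 1e-06. Domains numbered 11393 and 11312 at 3 and 24 hpi in 10 kb windows. The overlapping shares of 3 and 24 hpi domains (81.1% and 77.9%) were 82.9% and 79.2% without thinning, 86.6% and 85.2% in 10 kb windows, 82.8% and 73.2% at the stricter tail, 77.1% and 72.4% for an overlap of the larger part of a domain and 80.2% and 76.3% without gaps. The share of change at 12 hpi in higher and lower windows (61.1% and 48.5%) was 56.3% and 56.1% at 1.5-fold, 63.5% and 50.1% without thinning and 58.8% and 41.3% in 10 kb windows, and 42.5% in lower windows scaled by background.

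At starts lower in H3K27Me3, the median H3K27Ac change (-0.07) was -0.24 at 1.5-fold, 0.75 scaled by background and -0.17 in 2 kb, and at higher starts it was 0.37 scaled by background. The H3K4Me1 change at lower starts (-0.21) reversed to 0.034 scaled by background and was -0.30 in 2 kb. Scaled by background, list medians were 0.13 (Polycomb and demethylase), 0.083 (developmental transcription factors), 0.15 (Wnt, Fgf and Bmp ligands), 0.049 (potassium channels), -0.023 (zinc finger genes) and -0.13 (ribosomal proteins), and that of olfactory receptors reversed from -0.06 to 0.033. With GC class medians subtracted, the ligands had 0.15 and olfactory receptors -0.015, and in 2 kb olfactory receptors had 0. At 20 tags a change of few tags passes 2-fold, so single calls at that depth are weak.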
